A study of Mus musculus with 23 samples.

Results

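Gene expression in the gastrocnemius of Ts3Yah mice was compared with that of their diploid littermates. All arrays of that line were taken by genotype label, which gave 11 of the 23 in the series, 6 from Ts3Yah mice and 5 from diploid littermates. Ts3Yah mice carry a tandem duplication of the *Hspa13-App* stretch of mouse chromosome 16, which corresponds to a proximal stretch of human chromosome 21. The duplication was made by Cre/loxP recombination in embryonic stem cells, with targeting vectors that held DNA of another mouse strain. The mice were then bred on a C57BL/6J background for at least 5 generations. The vector insertion at the distal end leaves the duplication with no additional functional copy of *App*, and the genotype labels of the arrays call the line Ts2Yah. The diploid littermates carry no duplication, and the labels give no treatment. The arrayed mice were adult, and their exact age is not given in the sources used here. The other line of the series, Ms3Yah, has the reciprocal deletion, with 12 arrays and littermate controls of its own. The study asked which pathways of skeletal muscle differ when this stretch is present in an additional copy.

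The gastrocnemius is a large calf muscle made mostly of fast fibres, which draw on glycolysis and phosphocreatine, with fewer slow, oxidative fibres. Its mitochondria oxidise pyruvate and fatty acids through the tricarboxylic acid (TCA) cycle and pass the electrons along complexes I to IV, and the ATP synthase uses the resulting proton gradient. The genes of this machinery are controlled by the nuclear receptor ERRα and the PGC-1 coactivators, and by GABP, whose DNA-binding subunit is encoded by *Gabpa*. The duplicated stretch holds *Gabpa*, the ATP synthase subunit gene *Atp5j*, the nuclear receptor corepressor gene *Nrip1* and the mitochondrial ribosome gene *Mrpl39*.

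Signals are arbitrary brightness units after quantile normalisation. Values written as a pair are mean ± SD of the 6 Ts3Yah mice against mean ± SD of the 5 diploid littermates, and a fold change divides the first mean by the second. Log2 differences are Ts3Yah minus diploid, and the tests are two-sided limma fits within the line. Arrays showed between 17082 and 18669 probes with a detection p under 0.05. Sex is not in the labels. *Xist*, the RNA made from the inactive X chromosome of females, was high in 4 of 6 Ts3Yah and 2 of 5 diploid mice, so the mice with high *Xist* are unevenly shared out. The first principal component, 26.8% of the variance, ran from −12.8 to −9.17 on the arrays with high *Xist* and from 10.9 to 17.0 on the others. For some genes and lists, differences are therefore also given with *Xist* class as a term of the fit. For some they are given within the mice of low or of high *Xist*. Where neither is given, the value may still move with *Xist* class. In whole muscle, fewer cells of a type and less RNA per cell cannot be told apart.

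A gene was counted as detected when a probe had a detection p under 0.05 on at least 8 of the 11 arrays, which neither group can reach alone, and its brightest such probe stands for it. So counted, the muscle showed 9012 named genes, 9002 of them outside the duplicated stretch. Of 20 listed fast fibre genes 18 were detected. *Tnni2*, fast troponin I, stood at 41019 ± 1421 against 41884 ± 1264, and *Mylpf*, the regulatory light chain of fast myosin, at 43132 ± 892 against 41821 ± 967. Differences between the genotypes were small throughout. Of the 9012 genes, 84.9% had a fold change between 0.909 and 1.1, 15 lay at 1.5 or above and 11 below 0.67, and the median standard error of a log2 difference was 0.07.

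After adjustment over the 43917 expressed probes, 2 probes rose in Ts3Yah muscle (0.00455% of those tested) and 0 fell. They read *Keap1*, outside the duplicated stretch, and *Atp5j*, inside it. At an unadjusted p under 0.05, limma gave 1205 probes higher (2.74%) and 1236 lower (2.81%). The t-test of the study's methods gave 1157 and 1191 and none after adjustment. By their brightest probes 386 of the 9012 detected genes were higher (4.28%) and 450 lower (4.99%) at that p, and these shares are the background for every list count given here. Over all expressed probes the groups did not overlap for 115 that were higher (0.262%) and 121 that were lower (0.276%), and 209 (0.476%) had an unadjusted p under 0.05 with a fold change above 1.2 or below 0.8. By brightest probe they did not overlap for 30 genes that were higher (0.333%) and 29 that were lower (0.322%).

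**Figure D1:**
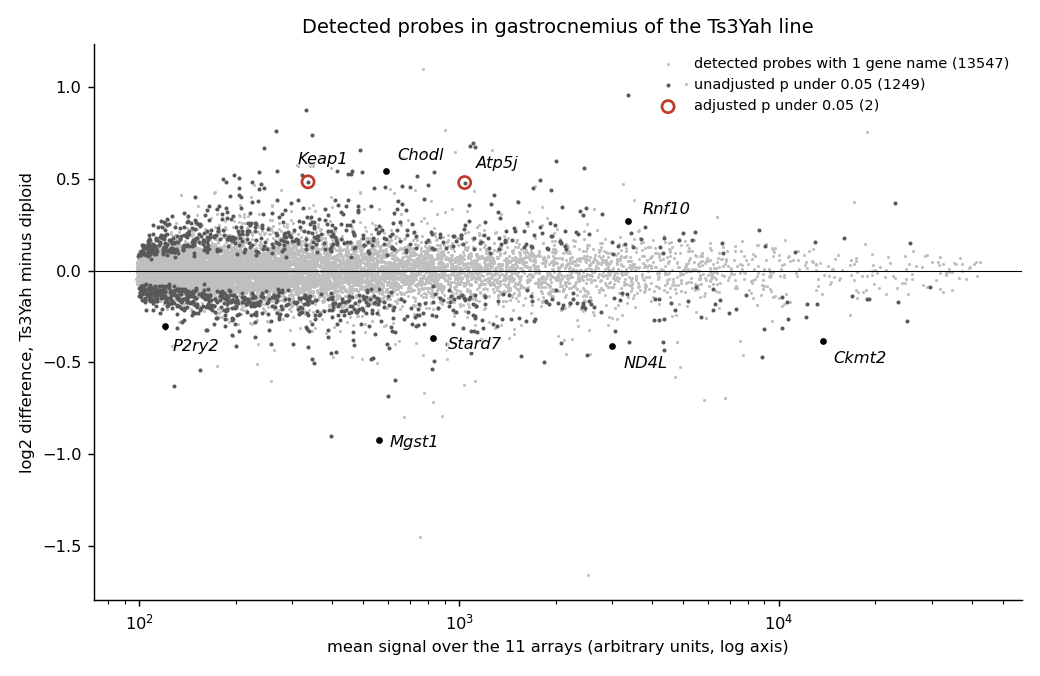
Each point is 1 of 13547 detected probes with 1 gene name, with mean signal over 11 arrays on a log axis against the log2 difference, Ts3Yah minus diploid. Dark points have an unadjusted p under 0.05, rings mark the 2 probes with an adjusted p under 0.05 (*Keap1* and *Atp5j*), and the cloud lies close to 0 at every brightness.

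*Keap1* encodes the adaptor that hands the antioxidant regulator Nrf2 to the ubiquitin system for destruction. On the probe that passed, signals of the Ts3Yah mice ran from 356 to 413 with a median of 386, and those of the diploid mice were 248, 252, 285, 290 and 309.8. Every Ts3Yah mouse lay above every diploid mouse, with a fold change of 1.40 (log2 0.48, SE 0.06, adjusted p = 0.0448). The log2 difference was 0.52 among low-*Xist* and 0.43 among high-*Xist* mice, and 0.47 with *Xist* class in the fit (adjusted p = 0.111). Over the 21 alternative settings the adjusted p ran from 0.0339 to 1. Leaving out 1 mouse at a time, this probe passed only without diploid mouse 34923 (0.0339), and leaving out any of the other 10 mice ended the call. The log2 difference itself stayed between 0.45 and 0.67 over all settings.

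A further 3 *Keap1* probes were detected. The brightest read 1120 ± 99.01 against 943 ± 75.3, a fold change of 1.19, with 5 of 6 Ts3Yah mice above the highest diploid mouse. Another read 797 ± 65.9 against 584 ± 85.8 and the groups did not overlap. The last stood at 816 ± 52.6 against 774 ± 76.3 and the groups overlapped fully. The probes thus spread from 1.05 to 1.40, and only 1 of the 4 passed adjustment.

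*Atp5j* encodes coupling factor 6, a part of the peripheral stalk of the ATP synthase. On its passing probe the Ts3Yah mice ran from 1063 to 1344 with a median of 1189, and the diploid mice had 784, 822, 869.8, 885 and 911. The groups were apart by a fold change of 1.40 (adjusted p = 0.0448). Leaving out 1 mouse, this probe passed only in the absence of Ts3Yah mouse 34661 (0.025), and with *Xist* class in the fit its adjusted p was 0.111. Its brightest probe, at a fold change of 1.29, and a dim one at 1.31 also kept every Ts3Yah mouse above every diploid mouse. All of its 3 detected probes therefore separated the genotypes, which 30 of 9012 genes did upwards by their brightest probe.

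The other genes of the stretch were divided. Of 15 genes, 10 were detected, 7 with a log2 difference above 0, and 4 were higher and 1 lower at an unadjusted p under 0.05. Their median log2 difference was 0.09, against −0.004 for all detected genes. It was 0.32 in the authors' background-subtracted values and 0.24 with neqc, 0.18 among low-*Xist* and 0.05 among high-*Xist* mice, and 0.135 without Ts3Yah mouse 34498 and 0.058 without Ts3Yah mouse 34661. *Chodl*, a C-type lectin, ran from 535 to 837 with a median of 676 in Ts3Yah mice and read 406, 465.5, 478, 492 and 509.9 in diploid mice. *D16Ertd472e* ran from 211 to 243 with a median of 229 against 162, 176, 179, 194 and 196. Like *Atp5j*, both kept every Ts3Yah mouse above every diploid mouse, with fold changes of 1.47 and 1.27 (1.58 and 1.53 in the background-subtracted values). *Mrpl39* stood at 126 ± 4.39 against 113 ± 6.22, close to the detection limit, and its fold change was 1.11, or 1.52 in the background-subtracted values. *Gabpa* stood at 106 ± 8.94 against 102 ± 4.33 and *Nrip1* at 118 ± 8.69 against 111 ± 11.8, both dim, with overlapping groups. *Usp25*, which encodes a deubiquitinase, was the member on the lower side, on its only detected probe, which is dim. Its Ts3Yah signals ran from 139 to 160.1 with a median of 144 and those of the diploid mice were 164, 169, 178, 182 and 221, with no overlap. By quantitative PCR of the muscle, the paper reports the duplicated genes as higher in Ts3Yah mice, apart from *Cxadr* and *Chodl*. It names *Usp25*, *Gabpa* and *Nrip1* among the genes that followed dosage. Just beyond the *App* end, *Usp16* also kept the groups apart, at 387 ± 10.6 against 438 ± 32.2, and the 7 detected border genes had a median of −0.07. *App* itself stood at 2324 ± 252 against 2370 ± 181. Averaged per mouse as the median deviation of the 10 genes from their means over the 11 mice, the stretch was the only one of 49 lists whose level did not overlap between genotypes, at 0.005 to 0.115 in Ts3Yah and −0.119 to −0.047 in diploid mice.

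*Gabpa* and *Atp5j* start head to head, and 247 of the 300 bases around the *Gabpa* start also lie in 1 of 2 promoter windows of *Atp5j*. The *Gabpa* window is shown with the promoters of *Cpt2* and *Acadm*, 2 oxidation genes described further on, because they hold letters known for GABP (CCGGAAG) or ERR (AAGGTCA). Windows run from 250 bases before to 50 after the start, on the gene's strand, from RefSeq on GRCm38.p6. They lie at chr16:84834874-84835173 on the plus strand, chr4:107923540-107923839 on the minus strand and chr3:153944594-153944893 on the minus strand. Capitals mark a match on either strand.
Gabpa: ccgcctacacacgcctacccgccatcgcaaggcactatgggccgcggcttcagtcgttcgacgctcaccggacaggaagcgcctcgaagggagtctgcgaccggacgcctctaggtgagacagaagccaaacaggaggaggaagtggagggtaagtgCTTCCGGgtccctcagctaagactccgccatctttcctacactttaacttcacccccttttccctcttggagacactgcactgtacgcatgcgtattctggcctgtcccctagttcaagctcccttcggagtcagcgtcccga
Cpt2: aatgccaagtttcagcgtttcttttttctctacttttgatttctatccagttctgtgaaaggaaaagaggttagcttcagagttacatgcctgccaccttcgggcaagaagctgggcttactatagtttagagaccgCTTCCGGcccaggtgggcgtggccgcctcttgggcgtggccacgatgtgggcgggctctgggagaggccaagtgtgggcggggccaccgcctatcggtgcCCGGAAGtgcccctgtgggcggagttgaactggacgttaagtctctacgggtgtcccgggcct
Acadm: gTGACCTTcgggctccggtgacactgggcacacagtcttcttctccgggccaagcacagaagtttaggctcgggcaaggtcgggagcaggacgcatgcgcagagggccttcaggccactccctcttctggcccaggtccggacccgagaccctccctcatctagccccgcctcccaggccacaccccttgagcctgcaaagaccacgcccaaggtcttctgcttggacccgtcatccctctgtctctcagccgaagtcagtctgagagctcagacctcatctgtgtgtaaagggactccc
Among all 32851 RefSeq windows, 8.86% held CCGGAAG or its reverse complement, as did 20.6% of the 7320 detected genes that have a window. The letters stood in 4 of 6 complex II and III genes, in 24 of 61 mitochondrial ribosome genes and in 13 of 26 import and quality control genes with a window. They stood in 4 of 32 complex I genes, 3 of 19 TCA genes and 2 of 19 fatty acid oxidation genes. High shares were not confined to mitochondrial lists. The letters also stood in 19 of 41 cytosolic ribosomal protein genes, 11 of 29 proteasome genes and 8 of 22 aminoacyl-tRNA synthetase genes. AAGGTCA or its reverse complement was present in 4.72% of all windows and in 3.93% of the detected genes that have a window. It was present in 5 of 14 ATP synthase genes, 1 of 19 TCA genes and 1 of 19 fatty acid oxidation genes. A match describes the letters and is no evidence of binding. The mitochondrial ribosome and import lists had median log2 differences of −0.01 and −0.05, and the TCA and fatty acid lists had −0.15 and −0.11.

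Outside the stretch, 3213 genes had at least 2 detected probes. For 35 of them at least 2 probes were higher at an unadjusted p under 0.05, and for 59 at least 2 were lower. In 13 and 36 of these genes every detected probe met that mark. None but the *Keap1* probe passed adjustment, and probes of 1 gene share the same RNA.

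On the higher side, *Eif2b5* encodes the catalytic subunit of eIF2B, which recharges the initiation factor eIF2 with GTP. On its brightest probe the Ts3Yah mice ran from 1318 to 1472 with a median of 1392, and the diploid mice had 952, 954, 1090, 1218 and 1230. The groups did not overlap, and its other detected probes stood at fold changes of 1.27 and 1.19. *Eif2b4*, the δ subunit of the same complex, was also apart, at 1663 ± 46.6 against 1520 ± 62.4. *Mef2c* encodes a transcription factor of muscle differentiation and contractile genes. Of its 5 detected probes 3 were higher, with fold changes of 1.26, 1.36 and 1.51. On the probe that separated the groups, Ts3Yah mice ran from 1850 to 2880 with a median of 2071 and diploid mice had 1300, 1625, 1636, 1741 and 1762. The dimmest *Mef2c* probes read 235 ± 53.0 against 196 ± 19.1 and 104 ± 4.39 against 103 ± 5.77, with overlap.

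*Wnt4* encodes a secreted Wnt ligand that acts in muscle formation and at the nerve-muscle contact. Its 2 probes read 458 ± 62.8 against 349.9 ± 51.8 and 269 ± 26.4 against 198 ± 25.6, and only the dimmer kept the groups apart. The paper also measured genes chosen from its array results by quantitative PCR. Of these it reports a change in Ts3Yah mice for *Wnt4* alone. *Twistnb*, a subunit gene of RNA polymerase I, stood at 261 ± 23.7 against 204 ± 49.7, higher on both of its probes but with overlap. *Nfic*, a nuclear factor I family member, had its dim probes at 1.44 and 1.28 while its brighter ones stood at 1.01 and 0.925. *Lsm12* was apart on 1 probe, at 214.6 ± 22.8 against 153.5 ± 17.85. Its other detected probes had fold changes of 1.5, 0.987 and 0.992. *Chd1*, a chromatin remodeller, was dim on all 3 probes, the brightest of which kept the groups apart at 117 ± 10.8 against 102 ± 4.44. So of these genes, *Eif2b5*, *Wnt4* and *Twistnb* were higher on every detected probe.

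Single probes led as well. *Rnf10* stood at 3663 ± 271 against 3029 ± 60.8, and the groups did not overlap. *Tctex1d2*, a dynein light chain gene, ran from 441 to 496 with a median of 478 in Ts3Yah mice and read 366, 410.2, 414, 415 and 421 in the diploid mice. *Gpn2*, a GTPase gene of RNA polymerase assembly, ran from 271 to 305 with a median of 279.5 against 212, 213, 217, 239 and 270.5. Neither overlapped, although in *Gpn2* the lowest Ts3Yah mouse and the highest diploid mouse were nearly level. *Nudt14*, a nucleotide-sugar hydrolase gene, and *5730409E04Rik* were also apart, at 119.6 ± 3.98 against 106 ± 3.54 and 114 ± 3.29 against 99.4 ± 4.26, both close to background.

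Among the lower genes, *P2ry2*, a receptor for extracellular ATP and UTP, came nearest to passing (adjusted p = 0.0746). Ts3Yah mice ran from 106 to 112 with a median of 108 and the diploid mice had 123, 129.6, 136, 138 and 145. The probe is dim, with a fold change of 0.810, or 0.432 in the authors' background-subtracted values. It passed with those values (adjusted p = 0.0373), with array weights (0.0455) and without diploid mouse 34723 (0.046).

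*Stard7* encodes a carrier of phosphatidylcholine to mitochondria. Its dimmer probe ran from 689 to 772 with a median of 736 in Ts3Yah mice and read 859, 893, 901, 1029 and 1053 in diploid mice, with no overlap. Its brighter probe stood at 0.813 with 5 of 6 Ts3Yah mice below all diploid mice. On that probe the log2 difference was −0.125 among low-*Xist* and −0.429 among high-*Xist* mice. *Tmem65*, an inner membrane protein of mitochondria, was lower on all 4 probes, with fold changes of 0.777, 0.854, 0.807 and 0.902. Mitochondrial creatine kinase, *Ckmt2*, which loads ATP energy onto creatine, had fold changes of 0.766 and 0.808 with overlap.

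*Esrra* encodes ERRα itself. On its brighter probe Ts3Yah mice ran from 803 to 957 with a median of 869 and the diploid mice had 936, 952, 978, 990.5 and 1120. The groups overlapped in 1 mouse, and the other probe stood at 0.812. On the brighter probe the log2 difference was −0.04 among low-*Xist* and −0.33 among high-*Xist* mice, and on the other −0.29 and −0.27. *Vegfa*, the main growth factor of blood vessels, stood at 1564 ± 184 against 1884 ± 183 and on a dimmer probe at 210.2 ± 18.5 against 255 ± 17.1. *Rrm1*, the large subunit of ribonucleotide reductase, was lower on both probes, at 0.796 and 0.916.

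*Hp* encodes haptoglobin, the haemoglobin-binding plasma protein, which fat cells also make. Its brightest probe ran from 111 to 147 with a median of 124 in Ts3Yah mice and read 148, 157, 158, 186 and 292 in the diploid mice, with no overlap and 1 diploid mouse far above the rest. The other probes gave fold changes of 0.799, also without overlap, and 0.858, with overlap. *Dnajc27*, a J-domain protein gene, was apart on its single detected probe, at 485 ± 40.7 against 616 ± 47.8. *Btg1*, an antiproliferative gene, stood at 345 ± 36.1 against 442 ± 39.4 and *Cmss1* at 475 ± 116 against 749 ± 89.3, with 1 Ts3Yah mouse of each among the diploid values. *Adal*, an adenosine deaminase-like enzyme, had the groups apart on 1 of 5 probes (0.871), while another stood at 1.07.

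**Figure D2:**
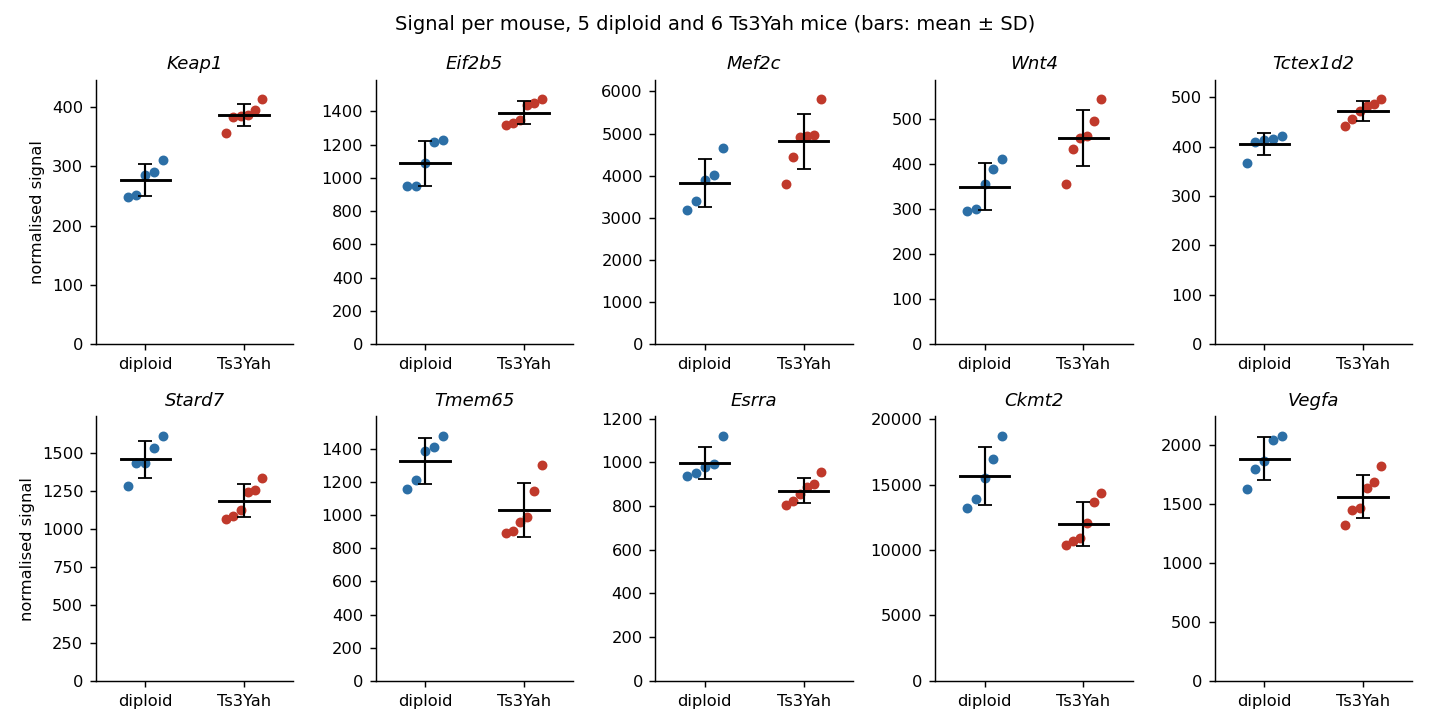
Normalised signal per mouse (vertical axes from 0, arbitrary units) for genes named in the text, 5 diploid mice in blue and 6 Ts3Yah mice in red, with mean ± SD in black. The brightest probe is shown except for *Keap1*, where it is the probe with an adjusted p under 0.05, and the groups are apart for *Keap1*, *Eif2b5* and *Tctex1d2* and overlap for the others.

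Genes of mitochondrial fuel oxidation stood lower in Ts3Yah muscle by small amounts. Of 21 detected genes of the TCA cycle and pyruvate dehydrogenase, 20 had a log2 difference below 0, and 9 were lower (42.9%) and 0 higher at an unadjusted p under 0.05, where 4.99% of all detected genes were lower. The median was −0.15. With *Xist* class in the fit it was −0.12, and −0.16 and −0.12 within the low and high classes. None passed adjustment over all probes.

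At the entrance of the cycle, *Dld*, the dehydrogenase subunit shared by the pyruvate and oxoglutarate complexes, ran from 305 to 381 with a median of 353 in Ts3Yah mice. The diploid mice had 386, 391, 397, 414 and 459, so the groups did not overlap, and the fold change was 0.858. *Pdha1*, the catalytic α subunit of pyruvate dehydrogenase, stood at 5228 ± 749.6 against 6218 ± 748 with overlap. Its phosphatase subunits were at the low end, *Pdp1* at 0.761 and *Pdpr* at 0.792. The kinase *Pdk1*, which switches the enzyme off, also had a fold change below 1 (0.846).

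Further round the cycle, *Idh3g*, a regulatory subunit of isocitrate dehydrogenase, stood at 10019 ± 455 against 11306 ± 1230. *Ogdh*, oxoglutarate dehydrogenase, read 2154 ± 139.9 against 2398 ± 149. *Sucla2*, the ATP-forming succinyl-CoA ligase subunit, gave 142 ± 6.44 against 162 ± 15.5. Fumarase, *Fh1*, was lower on both of its probes, the brighter at 3199 ± 218 against 3494 ± 246.

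Fatty acid oxidation had 21 of 23 detected genes below 0, a median of −0.11 and 4 lower (17.4%) with 0 higher. Without Ts3Yah mouse 34558 the median was −0.06. It was −0.21 among low-*Xist* and −0.10 among high-*Xist* mice. *Acadm*, medium-chain acyl-CoA dehydrogenase, ran from 5166 to 6657 with a median of 5560 in Ts3Yah mice against 6318, 6418, 6834, 6922 and 6955 in diploid mice. Of the 6 Ts3Yah mice 4 lay below every diploid mouse, and the others reached into the diploid range. *Cpt2*, which releases fatty acids from carnitine inside mitochondria, was lower on 3 of 3 probes (0.879 to 0.895), the brightest at 2296 ± 225 against 2590 ± 166. *Acadvl*, the very-long-chain dehydrogenase, stood at 3022 ± 289.7 against 3371 ± 134. *Etfdh*, which passes electrons from these enzymes to ubiquinone, read 804 ± 58.4 against 879 ± 51.8.

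Ketone and branched-chain amino acid breakdown had 11 of 13 genes below 0 and 4 lower (30.8%), with a median of −0.11 (−0.22 within low-*Xist* and −0.07 within high-*Xist* mice). *Oxct1*, the enzyme that lets muscle use ketone bodies, stood at 4002 ± 484 against 4826 ± 737. *Bdh1*, which oxidises hydroxybutyrate, read 176 ± 41.4 against 231 ± 45.6. *Pccb*, a subunit of propionyl-CoA carboxylase, gave 688 ± 26.5 against 815 ± 87.6, and 3 of 6 Ts3Yah mice lay below all diploid mice. *Ivd*, of leucine breakdown, stood at 1484 ± 291 against 1770 ± 104.

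The respiratory chain stood closer to 0. Complex I had 25 of 34 genes below 0 and 2 lower (5.88%), with a median of −0.03. *Ndufa4* ran from 16432 to 19167 with a median of 17925 in Ts3Yah mice against 19276, 19815, 19969, 20089 and 20401 in diploid mice, without overlap, although the fold change was only 0.899. *Ndufs4*, an accessory subunit, was lower on 3 of 4 probes. Complexes II and III had 9 of 10 below 0 with a median of −0.07. Among them the core proteins *Uqcrc1* and *Uqcrc2* stood at 0.865 and 0.904. Complex IV and cytochrome c had 12 of 12 below 0 and a median of −0.09. *Cox5a* and *Cox7a1*, subunits of complex IV, stood at 0.895 and 0.911. That median was −0.03 within low-*Xist* and −0.14 within high-*Xist* mice.

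The ATP synthase genes outside the duplicated stretch divided. Of 15, 12 lay below 0 with a median of −0.05. The α subunit gene *Atp5a1* ran from 2439 to 3061 with a median of 2706 in Ts3Yah mice and 3077, 3198, 3342, 3405 and 4194 in diploid mice. *Atp5g2*, 1 of the genes for the membrane c subunit, lay the other way, from 3793 to 4365 with a median of 4135 in Ts3Yah mice against 3073, 3378, 3583, 3599 and 3744. Neither gene had overlapping groups, so subunits of 1 enzyme were apart in opposite directions, with *Atp5j* on the higher side.

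The 8 detected genes of the mitochondrial genome had a median of −0.11, 6 below 0. It was −0.07 with *Xist* class in the fit, −0.04 among low-*Xist* and −0.08 among high-*Xist* mice, and −0.065 without diploid mouse 34723. *ND4L*, a complex I subunit, ran from 2258 to 3073 with a median of 2627 in Ts3Yah against 3090, 3203, 3632, 3641 and 3826 in diploid mice, apart by a fold change of 0.754. *COX2* stood at 12461 ± 1455 against 14045 ± 634. The others were not all below 0, with *CYTB* at 39730 ± 839 against 39226 ± 873 and *ND6* at 753 ± 167 against 623 ± 148.

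Among regulators, the PGC-1 and ERR list had 10 of 13 below 0 and a median of −0.05. *Perm1*, a muscle partner of ERRα and PGC-1, stood at 2207 ± 281 against 2487 ± 193. The coactivator genes themselves did not lie lower, with *Ppargc1a* at 185 ± 26.2 against 179 ± 35.97 and *Ppargc1b* at 655 ± 88.1 against 576 ± 133. The 69 mitochondrial ribosome genes split 33 to 36 around a median of −0.01, and *Mrpl14* kept its groups apart at 1847 ± 61.4 against 2063 ± 146. Import and quality control had 20 of 30 below 0 with a median of −0.05. *Tomm22*, the central import receptor of the outer membrane, lay farthest from 1 and on the higher side, at 969 ± 189 against 671 ± 169, with 5 of 6 Ts3Yah mice above every diploid mouse and mouse 34730 within the diploid range. In the same list *Hspa9*, the matrix chaperone that pulls proteins in, stood at 6212 ± 461 against 6938 ± 198, and the protease subunit *Clpp* at 980.2 ± 60.2 against 1075 ± 61.6. Carriers (median −0.02, 15 of 23 below 0) held *Slc25a25*, the ATP-Mg carrier, at 1341 ± 514 against 826 ± 352. Fusion, fission and inner membrane genes (median −0.02, 8 of 14 below 0) held *Mfn1*, a fusion GTPase, at 1991 ± 123 against 2265 ± 168 and *Dnm1l*, the fission GTPase, at 465 ± 41.6 against 542 ± 74.5.

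**Figure D3:**
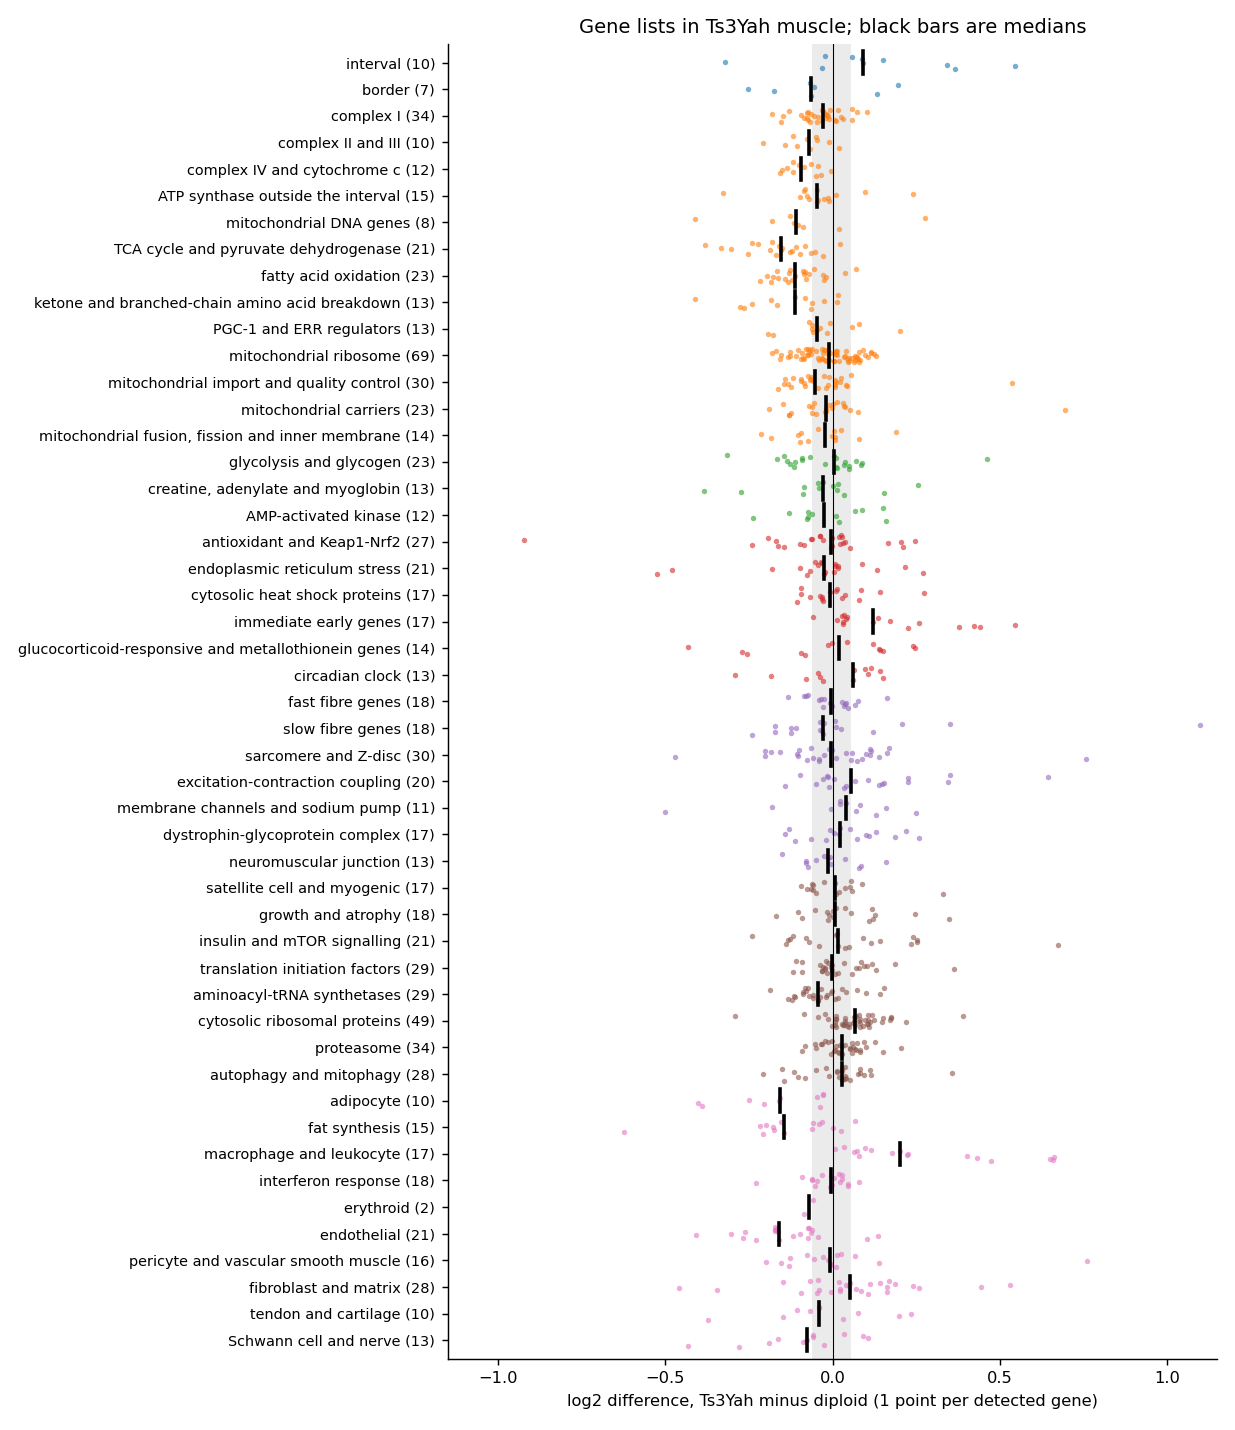
Log2 differences, Ts3Yah minus diploid, of the detected genes of 49 lists, 1 point per gene and the number of genes in parentheses. Black bars are medians and the grey band spans the quartiles of all 9012 detected genes (−0.06 to 0.05), with the medians of the TCA, fatty acid oxidation, endothelial, adipocyte and fat synthesis lists among those below it and the macrophage, immediate early, duplicated-stretch (interval) and cytosolic ribosomal lists among those above.

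In Ms3Yah muscle against its own littermates these lists had medians above 0, which were 0.15 for the TCA list, 0.15 for fatty acid oxidation, 0.09 for complex I, 0.11 for complexes II and III and 0.14 for complex IV. The mitochondrial ribosome stood at 0.09 and the PGC-1 and ERR list at 0.10. The difference of the list medians between lines was not tested, and probe by probe the lines were compared in limma, where 12 of 45139 probes passed (0.0266%), none of them assigned to a gene of these lists, which leave out the genes of the duplicated stretch such as *Mrpl39*.

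Glycolysis and glycogen genes centred on 0, with 12 of 23 above it and a median of 0.004. *Gbe1*, the glycogen branching enzyme, was the only one at an unadjusted p under 0.05, at 118 ± 8.98 against 147 ± 20.1. Creatine, adenylate and myoglobin genes had a median of −0.03, with 2 higher and 3 lower of 13. Myoglobin, *Mb*, the oxygen store of oxidative fibres, ran from 19969 to 28878 with a median of 22309 in Ts3Yah mice and read 25656, 27143, 27143, 28878 and 29092 in diploid mice. Of the Ts3Yah mice 5 lay below every diploid mouse, and mouse 34730 was level with the diploid ones. On the other side, *Ampd1*, the AMP deaminase of fast fibres, stood at 26882 ± 1733 against 24183 ± 1831, and *Gamt*, which completes creatine synthesis, at 459.9 ± 56.5 against 387 ± 63.1. AMP-activated kinase genes split 6 to 6, and *Acacb*, the carboxylase that holds back fatty acid entry into mitochondria, stood at 1020 ± 88.0 against 1203 ± 71.2. The median of that list was −0.03, and 0.04 with *Xist* class in the fit.

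Antioxidant and Keap1-Nrf2 genes had a median of −0.01 with 11 of 27 above 0. *Sod2*, the mitochondrial superoxide dismutase, read 4932 ± 224 against 5535 ± 507. *Gstp1*, a glutathione transferase, read 5796 ± 264 against 5028 ± 477. *Mgst1*, another one, was the farthest from 1 of the 27, with Ts3Yah mice from 272 to 521 with a median of 391 and diploid mice at 453, 704, 745, 807 and 1104. The endoplasmic reticulum stress list had a median of −0.03, and cytosolic heat shock proteins of −0.01 with no member at an unadjusted p under 0.05. In the endoplasmic reticulum stress list *Wfs1* stood at 449 ± 52.9 against 628 ± 97.6, a fold change of 0.714. Of the Ts3Yah mice 5 of 6 lay below every diploid mouse. On the higher side of that list *Calr*, a calcium-binding chaperone, stood at 217 ± 25.1 against 187 ± 23.4.

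Immediate early genes, which muscle induces within minutes of contraction or handling, had 16 of 17 above 0 and a median of 0.12. Only *Klf6* met an unadjusted p under 0.05, at 538 ± 141 against 367 ± 95.1. *Egr1* stood at 859.9 ± 512 against 573 ± 113, and its Ts3Yah values were widely spread. The median was 0.05 with *Xist* class in the fit, −0.04 among low-*Xist* and 0.16 among high-*Xist* mice. Per mouse, the list level was highest in Ts3Yah mouse 34498 (0.313) and lowest in diploid mouse 34925 (−0.257), and without either of them the median was 0.03 and 0.02.

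The fast fibre genes *Mylpf*, *Tnni2* and *Atp2a1* share the same highest signal, 43820, at the top of the normalised scale. That limits the differences that could be seen in the brightest genes. Fast fibre genes had a median of −0.004, 8 of 18 above 0 and none at an unadjusted p under 0.05. Slow fibre genes had a median of −0.03 and no member at that p. With *Xist* class in the fit the median was −0.20, with 3 of 18 members lower and 0 higher at that p. In that fit 483 of all 9012 detected genes were lower. The Ts3Yah mice were spread more widely than the diploid ones. The list level per mouse spanned −0.624 to 1.032 among the former and −0.280 to 0.293 among the latter. *Myh7*, the slow myosin heavy chain, ran from 147 to 1545 with a median of 259.6 in Ts3Yah mice and read 213, 237, 249.7, 279.8 and 407 in the diploid mice. *Myl2*, its regulatory light chain, ran from 6955 to 31529 with a median of 10993 against 10221, 10440, 13777, 14378 and 17473. Troponin C of slow muscle, *Tnnc1*, ran from 3548 to 22572 with a median of 7285 against 6371, 7196, 7267, 8252 and 12327. Below every diploid mouse lay 2 Ts3Yah mice for *Myh7* and 3 each for *Myl2* and *Tnnc1*. In all 3 genes mice 34730 and 34725 lay above every diploid mouse. Both of these mice have high *Xist*, and the list median was −0.35 among low-*Xist* and 0.16 among high-*Xist* mice. How the amount of slow fibre in a sample bears on the oxidative genes was not tested. Across the 2 Ts3Yah mice with most slow fibre signal, *Atp5a1* read 3061 and 2439 and *Acadm* 6657 and 5166, with the higher value of each in mouse 34730.

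**Figure D4:**
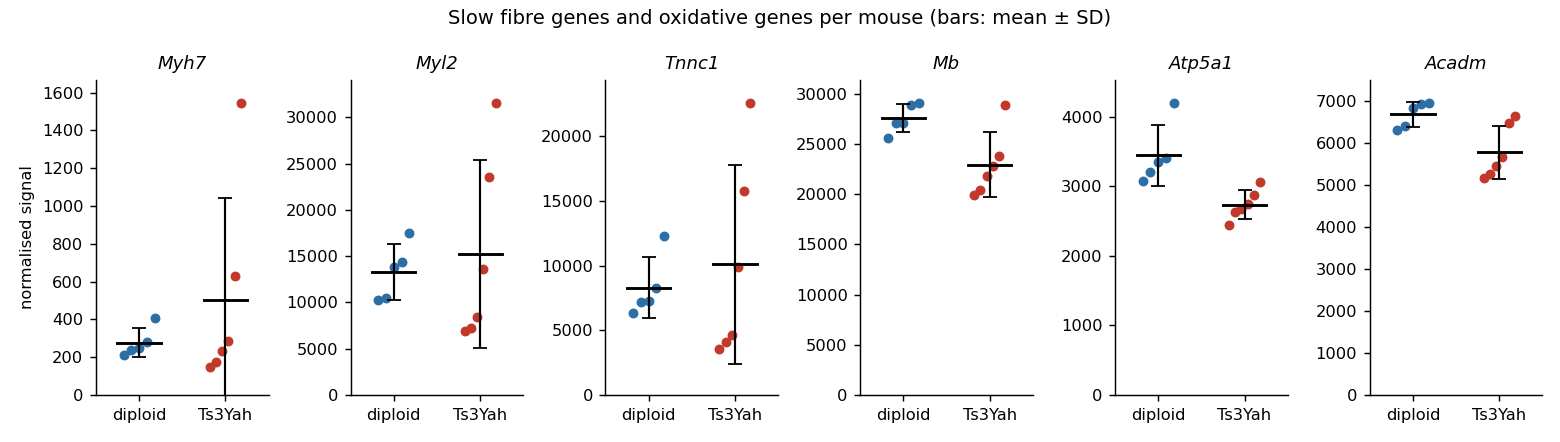
Normalised signal per mouse (vertical axes from 0) of the slow fibre genes *Myh7*, *Myl2* and *Tnnc1* and of *Mb*, *Atp5a1* and *Acadm*, with 5 diploid mice in blue, 6 Ts3Yah mice in red and mean ± SD in black (the lower end of the *Myh7* bar falls below the axis). Ts3Yah mice reach beyond the diploid range on both sides for the slow fibre genes, and lie below it in all 6 mice for *Atp5a1*.

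Excitation-contraction coupling, the link from the nerve-borne signal at the membrane to calcium release, had 13 of 20 genes above 0, a median of 0.05 and 5 higher with 0 lower. *Cacna2d1*, a subunit of the voltage sensor, ran from 607 to 1210 with a median of 963 in Ts3Yah mice and read 378, 424, 605, 689 and 884 in diploid mice, with 3 of 6 Ts3Yah mice above them all. *Stac3*, an adaptor of the voltage sensor, stood at 533 ± 50.3 against 423 ± 92.3, and *Jsrp1*, a junctional protein, at 1112 ± 101 against 948 ± 51.1. *Jph2*, which ties the sarcoplasmic reticulum to the membrane, read 2295 ± 222 against 1843 ± 477. The calcium release channel *Ryr1* stood at 20180 ± 1068 against 20328 ± 1234. With *Xist* class in the fit the list had 7 genes higher and none lower, and its median was 0.09. In that fit 444 of all 9012 detected genes were higher.

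Membrane channels and the sodium pump had a median of 0.04, which was −0.069 among low-*Xist* and 0.045 among high-*Xist* mice. The pump subunits lay in opposite directions, *Atp1b2* at 2140 ± 239 against 1799 ± 194 and *Atp1b1* at 1559 ± 517 against 2172 ± 558. The dystrophin-glycoprotein complex had a median of 0.02 and *Dag1*, dystroglycan, at 1748 ± 219.9 against 1473 ± 275. Sarcomere and Z-disc genes centred on −0.01. *Xirp2*, an actin-binding protein of stretched muscle, ran from 5878 to 9730 with a median of 7124 in Ts3Yah mice and read 8691, 9198, 10405, 11765 and 11956 in diploid mice, with 4 of 6 Ts3Yah mice below all of them. Neuromuscular junction genes had a median of −0.01 and no member at an unadjusted p under 0.05.

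Among growth lists, satellite cell and myogenic genes had a median of 0.01, with *Mef2c* as the only member at an unadjusted p under 0.05. The growth and atrophy list had 0.01 and no such member. Insulin and mTOR genes had 0.02, with 2 higher and 3 lower of 21. The lower ones include *Pdk1*, the pyruvate dehydrogenase kinase described above, which was counted in this list. *Eif4ebp2* ran from 1098 to 1494 with a median of 1396 in Ts3Yah mice. Diploid mice ran from 537 to 1196 with a median of 754, and 4 Ts3Yah mice lay above them all. *Irs2*, an insulin receptor substrate, stood at 431 ± 60.03 against 361 ± 41.5, and *Tsc1*, a brake on mTOR, at 178 ± 8.63 against 193 ± 8.85.

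Genes for making and clearing proteins had medians near 0. Cytosolic ribosomal protein genes had 43 of 49 above 0, a median of 0.07, 4 higher and 1 lower, and the median was 0.04 with *Xist* class in the fit and −0.001 among low-*Xist* mice. *Rpl32* stood at 9232 ± 1035 against 7916 ± 723 and *Rps10* at 3909 ± 391.9 against 3456 ± 224. Initiation factors had a median of −0.003 and aminoacyl-tRNA synthetases of −0.04, and in the latter *Sars2*, the mitochondrial seryl enzyme, kept the groups apart at 158 ± 10.3 against 180.3 ± 12.4. Proteasome genes had 24 of 34 above 0 and a median of 0.03, with *Psmc3*, a base subunit, at 2707 ± 141 against 2355 ± 169.9. Autophagy and mitophagy genes had 0.03, with *Gabarapl1*, of the membrane-lipidated family, at 461 ± 40.8 against 363 ± 63.3 and *Ulk1*, the starting kinase, at 438 ± 42.4 against 508 ± 69.1.

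Markers of other cells in the muscle had medians of similar size. Endothelial genes had 19 of 21 below 0, a median of −0.16 and 5 lower (23.8%) with 0 higher. *Flt1*, a receptor for *Vegfa*, ran from 876 to 1233 with a median of 1094 in Ts3Yah mice and read 1172, 1284, 1301, 1308 and 1432 in diploid mice, with 5 of 6 Ts3Yah mice below all diploid mice. *Gpihbp1*, which holds lipoprotein lipase on capillaries, ran from 351 to 524 with a median of 391.9 against 378, 469, 591, 634 and 646. *Nos3*, endothelial nitric oxide synthase, was lower on 3 of 3 probes, the brightest at 198 ± 13.1 against 222 ± 9.06. *Tek*, the angiopoietin receptor, stood at 251 ± 38.2 against 299 ± 33.9, and *Esm1*, a secreted endothelial proteoglycan outside the list, was apart at 104 ± 4.47 against 118 ± 2.96 near the detection limit. *Vwf* stood at 634 ± 166 against 563 ± 70.4. The list median was −0.11 with *Xist* class in the fit, and −0.13 and −0.05 in the low and high classes. It was −0.10 without Ts3Yah mouse 34730 or without diploid mouse 34723.

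Adipocyte genes were detected for 10 of 17 listed, 10 below 0, with a median of −0.16 and 2 lower at an unadjusted p under 0.05. With *Xist* class in the fit the median was −0.31 and 4 were lower, where 483 of all 9012 detected genes were lower. *Adipoq*, made almost only by fat cells, stood at 522 ± 118 against 728 ± 494, and *Cidec*, a lipid droplet protein, at 219.8 ± 48.0 against 275 ± 158, both with wide diploid spread. *Pnpla2*, the triglyceride lipase that muscle fibres express too, ran from 2491 to 3542 with a median of 2875 in Ts3Yah mice and read 3351, 3700, 3761, 4169 and 4483 in diploid mice. Fat synthesis had 12 of 15 below 0 and a median of −0.15, which was −0.03 among low-*Xist* and −0.27 among high-*Xist* mice. Its per-mouse level spanned −0.129 to −0.016 over Ts3Yah and −0.121 to 0.15 over diploid mice. The adipocyte median was −0.04 and −0.39 within these classes. It came to −0.02 without diploid mouse 34561 and −0.04 without diploid mouse 34731, and the fat synthesis median to −0.05 without the latter. In Ms3Yah muscle the adipocyte median was −0.27, on the same side.

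All 17 detected macrophage and leukocyte genes lay above 0 with a median of 0.20, and 1 was higher at an unadjusted p under 0.05 (5.88%). That one was *H2-Eb1*, of antigen presentation, at 578 ± 179 against 382 ± 161. *Cd74*, the invariant chain, read 1481 ± 446 against 998 ± 449.7, while the macrophage receptor *Csf1r* stood at 177 ± 12.5 against 172 ± 35.6. The median was 0.27 among low-*Xist* and −0.01 among high-*Xist* mice, and 0.12 without diploid mouse 34723, and the per-mouse level overlapped, at −0.191 to 0.278 in Ts3Yah and −0.525 to 0.277 in diploid mice. Fibroblast and matrix genes had a median of 0.05, 19 of 28 above 0 (but −0.006 without diploid mouse 34723 and −0.02 among high-*Xist* mice), with *Gsn* at 528 ± 119 against 377 ± 125. Pericyte and vascular smooth muscle genes had −0.01. *Rgs5*, a pericyte marker, ran from 172 to 655 with a median of 237 in Ts3Yah mice and read 135, 173, 173, 187 and 218 in diploid mice, and the Ts3Yah mice 34498 and 34730 stood far above the others. The part of these cell types in the mitochondrial and endothelial differences was not tested.

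**Figure D5:**
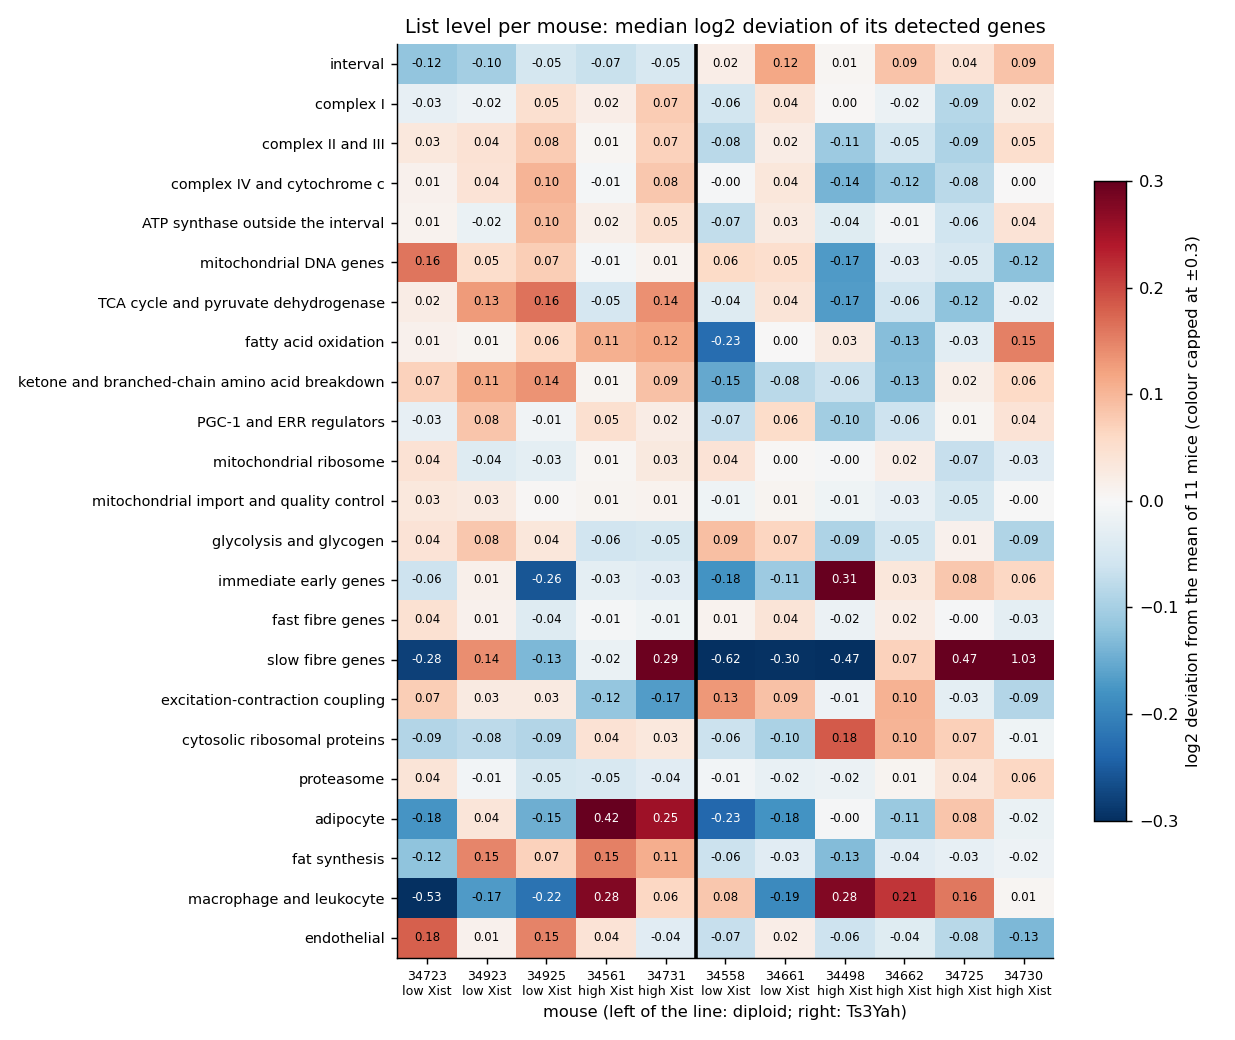
Level of 23 lists in each mouse, as the median over a list's detected genes of the log2 deviation from the gene's mean over 11 mice, with diploid mice left of the line, Ts3Yah mice right and *Xist* class under each mouse. The duplicated stretch (interval) is the only list with all Ts3Yah mice above all diploid mice, and the slow fibre list varies most, from −0.624 to 1.032.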

How the data were processed

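Total RNA of gastrocnemius had been hybridised to Illumina MouseWG-6 v2.0 arrays, 1 mouse per array. Labels gave 6 Ts3Yah (written Ts2Yah) and 5 diploid mice, and a further diploid mouse, which principal components had led the authors to drop, was not used. The deposited intensity values are raw probe signals with a detection p-value each, not background-subtracted or normalised by the authors (scanner software not given in the sources used here). A second deposited table holds background-subtracted, normalised intensity on a linear scale inferred from the values (medians 3.82 to 3.85 over the 11 columns), and its background method is not given in the sources used here, nor are slide or scan batch.
Raw signals (medians 85.5 to 98.0 in the line) of all 23 arrays went through quantile normalisation and then log2. Probes above the 35th percentile (89.8) on at least 1 array of the line were tested in limma (version 3.58.1, lmFit then eBayes; R version 4.3.3), Ts3Yah line only, with Benjamini-Hochberg adjustment over 43917 probes. The study's t-test was replaced by limma and run as an alternative. Differences between lines were fitted over all 4 groups. Of 45281 probes 34885 have 1 gene symbol, 18 several and 10378 none in the platform annotation, and 34807 symbols were updated. In simulated data of the same 43917 probes, with independent noise, 67 detected probes were changed by log2 0.25, 67 by 0.5 and 66 by 1. Of these, 25.4%, 70.1% and 95.5% were recovered, with 6 false calls. Adjustment is stricter where fewer probes change, so these rates may be too high for the real data. The number of arrays limits precision.
Members and lists were chosen with earlier results of these data known. Named genes are the probes passing adjustment, the 10 leading probes per direction, 8 genes per direction with 2 or more probes at an unadjusted p under 0.05, every gene of the duplicated stretch, and up to 4 members of each list with the smallest p with its 2 brightest. *Adipoq*, *Cidec*, *Csf1r*, *Egr1*, *Fh1*, *Pdha1*, *Pdp1*, *Ppargc1a*, *Tnnc1*, *Vwf* and the genes named for detection alone fall outside this rule and were chosen after their values were seen. The lists are: the duplicated stretch; border; complex I; complex II and III; complex IV and cytochrome c; ATP synthase outside the interval; mitochondrial DNA genes; TCA cycle and pyruvate dehydrogenase; fatty acid oxidation; ketone and branched-chain amino acid breakdown; PGC-1 and ERR regulators; mitochondrial ribosome; mitochondrial import and quality control; mitochondrial carriers; mitochondrial fusion, fission and inner membrane; glycolysis and glycogen; creatine, adenylate and myoglobin; AMP-activated kinase; antioxidant and Keap1-Nrf2; endoplasmic reticulum stress; cytosolic heat shock proteins; immediate early genes; glucocorticoid-responsive and metallothionein genes; circadian clock; fast fibre genes; slow fibre genes; sarcomere and Z-disc; excitation-contraction coupling; membrane channels and sodium pump; dystrophin-glycoprotein complex; neuromuscular junction; satellite cell and myogenic; growth and atrophy; insulin and mTOR signalling; translation initiation factors; aminoacyl-tRNA synthetases; cytosolic ribosomal proteins; proteasome; autophagy and mitophagy; adipocyte; fat synthesis; macrophage and leukocyte; interferon response; erythroid; endothelial; pericyte and vascular smooth muscle; fibroblast and matrix; tendon and cartilage; Schwann cell and nerve; and sex-linked genes, of which 0 were detected on 8 arrays. Alternatives were other normalisations, background correction (neqc), the authors' processed values, other filters, *Xist* class as a term, array weights, an intensity trend, the t-test, all detected probes of a gene, and leaving out each array. Splits by *Xist* class were added after seeing the data.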

Additional observations from a re-analysis of the deposited data

Results flagged for a closer look

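In 21 of 354 groups checked (5.93%), 1 mouse lay far from the rest of its group. Chance alone marks about 1 in 20 groups this way.
Among diploid mice, mouse 34923 was high for *Rnf10* (3135, others 2991 to 3020), *Mrpl14* (2319, others 1968 to 2037) and *Slc25a25* (1448, others 626 to 771), and low for *Gstp1* (4202, others 5075 to 5406). Mouse 34723 was high for *Stac3* (585, others 360 to 403) and low for *Camkk2* (108.5, others 119.6 to 122.1), a kinase upstream of AMP-activated kinase. Mouse 34561 was low for *Cmss1* (594, others 750.2 to 806) and *Pdk1* (163.9, others 208 to 217). Mouse 34925 was low for *Tctex1d2* (366.5, others 410.2 to 421) and for the level of the immediate early list (log2 −0.257, others −0.061 to 0.015). Mouse 34731 was low for the brightest *Keap1* probe (812, others 950.1 to 998).
Among Ts3Yah mice, mouse 34498 was low for *Jam2*, a junction protein of vessels (148.5, others 214 to 244), and *Gabpa* (89.0, others 106 to 115), and high for *Atg5*, an autophagy gene (509, others 454 to 472.3). Mouse 34661 was high for *Uqcrc1* (7898, others 6399 to 6853) and *Idh3g* (10898, others 9642 to 10088), and low for *Rpl7a* (594, others 691 to 736). Mouse 34558 was high for *Usp25* (160.1, others 139 to 146) and low for *Sars2* (138.5, others 157 to 167). *Tomm22* was low in mouse 34730 (598, others 975 to 1132), and *Dag1* high in mouse 34662 (2176, others 1575 to 1753).
The change in Ts3Yah muscle differed from that in Ms3Yah muscle in the limma test between lines for these genes of the duplicated stretch: *Atp5j* by a log2 of 0.99 on its brightest probe and 1.34 on the probe that passed in Ts3Yah, *Chodl* by 1.27, *D16Ertd472e* by 0.97, *App* by 0.84, *Jam2* by 0.46 on 1 probe and *Mrpl39* by 0.36.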

How the results depend on the processing

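No paired analysis was possible because the replicate numbers are mouse identifiers that the groups do not share. The count of probes past adjustment (2) was 0 with median scaling, neqc, *Xist* class as a term and the t-test, 1 with the authors' processed values and with an intensity trend, and 0 to 2 without 1 mouse. It was 0 without Ts3Yah mice 34662, 34730 or 34725 or diploid mice 34561, 34731 or 34925. Without Ts3Yah mouse 34498 the 2 probes were others, *Slc25a12* (log2 −0.40) and one with no name (0.68). The number of probes at unadjusted p under 0.05 (2441) was 1586 with median scaling, 1085 with the processed values (17981 probes tested), 1049 among 15692 detected probes and 2113 to 2693 without 1 mouse. For probes at unadjusted p under 0.05 and a fold change above 1.2 or below 0.8, 209 became 839 with neqc, 662 with processed values and 150 to 330 without 1 mouse, the highest without diploid mouse 34561. The 12 probes differing between lines became 6 with median scaling and 10 to 19 without 1 mouse, the highest without Ms3Yah mouse 37148. The *App* difference ran from −0.078 to 0.002 without 1 mouse, above 0 only without Ts3Yah mouse 34498. Among high-*Xist* mice alone, a split chosen after seeing the data, the sign turned for *Nrip1* (−0.12), *Btg3* (0.005) and *Mrps6* (−0.005). Of 49 list medians 18 changed sign under at least 1 of the settings other than the *Xist* splits. Without 1 mouse the TCA median ran from −0.193 to −0.130, fatty acid oxidation from −0.138 to −0.057, endothelial from −0.174 to −0.096 and adipocyte from −0.293 to −0.024. The causes were not tested. Dim probes near background limit the fold changes that could be seen.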

Other observations

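Nerve, blood and tendon markers were few. Schwann cell and nerve genes had 10 of 13 below 0 and a median of −0.08, which was −0.25 in the authors' background-subtracted values, −0.17 with neqc, −0.17 among low-*Xist* and −0.01 among high-*Xist* mice, −0.011 without diploid mouse 34925 and −0.044 without Ts3Yah mouse 34662. Among its members were *Sox10*, a glial regulator, at 152 ± 11.4 against 175 ± 25.1 and *Mbp*, a myelin protein, at 756 ± 152 against 1111 ± 611, where 1 diploid mouse read 2146. Tendon and cartilage genes had a median of −0.04 and no member at an unadjusted p under 0.05. Of the erythroid list 2 genes were detected (median −0.07). The interferon list had a median of −0.004, with *Ifit3* at 249 ± 34.5 against 292 ± 30.6. Circadian genes (0.06) and glucocorticoid-responsive and metallothionein genes (0.02) had no member at an unadjusted p under 0.05.
Detection itself hardly separated the genotypes. Of all probes, 13672 were detected on every array of the line and 18804 on none. *Urb1* was detected in all Ts3Yah and no diploid mice, and *Fdxacb1*, *Efnb2* and *Unkl* the other way round, all of them near the detection limit.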
